A study of Homo sapiens with 3 samples.

Results

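The cells described here are the 150 with the strongest interferon-induced transcripts among 8913 cells of a pooled mesothelioma culture. They were chosen by a rank: the share of a cell's unique molecular identifiers (UMIs, each counting 1 captured RNA molecule) that fell in OASL, RSAD2, CCL5 and IFIT2. These 4 genes (the rule genes) are transcribed after viral nucleic acid or interferon is sensed, and because they chose the cells they were left out of every level, ratio and sum below. The 150 cells are called members, and the 8763 cells left are called other cells.

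The study derived a resistant clone, NCI-H226_CL3, from the pleural mesothelioma line NCI-H226, which lacks NF2, by growth in a small-molecule TEAD inhibitor whose dose was raised from 0.25 µM, by 0.1 to 0.5 µM at a time, until it reached 3 µM. TEAD proteins are the DNA-binding partners of YAP and TAZ, and GNE7883 inhibits them. Parental cells and the clone, given GNE7883 or the solvent DMSO, were marked with hashtags and pooled for paired RNA and open-chromatin sequencing of the same barcodes. The expression and accessibility libraries make 1 pooled sample with no replicate and no map here from barcode to line or treatment, so no comparison of conditions and no test was possible, and every interval below covers counting error only. The resistant line is a single clone.

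Cells sense foreign or misplaced nucleic acid through receptors such as RIG-I and MDA5, which signal through MAVS, and STING, which does not. Both routes lead to TBK1 and the transcription factor IRF3. IRF3 induces type I and type III interferons together with a first set of antiviral genes, and secreted interferon then acts through JAK kinases on transcription factors, STAT2 and IRF9 among them, which bind a DNA element rich in GAAA repeats (the interferon-stimulated response element) in front of many genes. Their products block viral entry, translation and replication, degrade RNA, conjugate ISG15 to proteins and raise antigen presentation.

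The promoters of the leading genes are shown first because this element is the regulatory sequence known for the interferon response. The window runs from 250 bases before to 50 bases after the RefSeq gene start (GRCh38.p14). The pattern searched was GAAANNGAAA on both strands, overlapping matches included, and capitals mark its matches, which read as the reverse complement where they lie on the other strand. The 6 genes are those of the interferon lists, with an entry in the promoter table, whose transcripts stood out most in members.
The 4 genes with a match were IFIT3 (chr10:89327747-89328046, plus strand), ISG15 (chr1:1013247-1013546, plus strand), IFI44L (chr1:78620198-78620497, plus strand) and IFIT1 (chr10:89392373-89392672, plus strand), each with 2 matches:
IFIT3: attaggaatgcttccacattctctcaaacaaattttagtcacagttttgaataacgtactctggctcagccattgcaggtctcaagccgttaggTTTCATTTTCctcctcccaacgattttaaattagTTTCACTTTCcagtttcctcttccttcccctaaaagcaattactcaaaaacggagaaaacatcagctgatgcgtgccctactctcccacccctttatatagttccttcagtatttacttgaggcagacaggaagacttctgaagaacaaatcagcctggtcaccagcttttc
ISG15: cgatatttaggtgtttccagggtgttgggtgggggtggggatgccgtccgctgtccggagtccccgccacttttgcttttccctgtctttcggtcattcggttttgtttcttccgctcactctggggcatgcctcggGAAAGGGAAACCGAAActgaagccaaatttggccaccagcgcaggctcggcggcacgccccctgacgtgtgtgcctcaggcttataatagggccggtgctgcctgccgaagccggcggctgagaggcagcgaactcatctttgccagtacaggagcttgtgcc
IFI44L: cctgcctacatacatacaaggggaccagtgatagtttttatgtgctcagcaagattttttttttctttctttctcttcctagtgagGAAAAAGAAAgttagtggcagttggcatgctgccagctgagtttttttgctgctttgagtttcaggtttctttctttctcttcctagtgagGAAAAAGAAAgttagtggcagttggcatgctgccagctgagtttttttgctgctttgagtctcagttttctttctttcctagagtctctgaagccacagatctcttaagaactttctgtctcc
IFIT1: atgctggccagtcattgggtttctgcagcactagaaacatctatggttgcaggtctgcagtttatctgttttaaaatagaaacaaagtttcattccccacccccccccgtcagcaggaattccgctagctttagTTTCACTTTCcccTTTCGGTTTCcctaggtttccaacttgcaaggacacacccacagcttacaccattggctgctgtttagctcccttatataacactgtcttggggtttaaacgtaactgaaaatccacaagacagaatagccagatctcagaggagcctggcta
No match stood in the windows of ZC3HAV1 (chr7:139109671-139109970, minus strand) and SAMD9L (chr7:93148336-93148635, minus strand):
ZC3HAV1: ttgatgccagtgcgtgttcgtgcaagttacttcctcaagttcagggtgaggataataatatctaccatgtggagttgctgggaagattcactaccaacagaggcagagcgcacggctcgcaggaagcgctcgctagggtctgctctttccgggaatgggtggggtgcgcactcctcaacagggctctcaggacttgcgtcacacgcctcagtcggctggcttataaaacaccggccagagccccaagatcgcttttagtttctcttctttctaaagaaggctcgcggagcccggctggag
SAMD9L: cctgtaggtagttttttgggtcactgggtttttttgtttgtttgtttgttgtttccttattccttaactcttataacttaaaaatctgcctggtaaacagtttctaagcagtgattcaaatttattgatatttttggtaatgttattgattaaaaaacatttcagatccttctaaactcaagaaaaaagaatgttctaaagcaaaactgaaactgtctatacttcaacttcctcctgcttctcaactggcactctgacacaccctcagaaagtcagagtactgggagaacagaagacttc

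The 2 matches of ISG15 overlap, from 113 to 104 and from 107 to 98 bases before the start. Those of IFIT1 lie side by side, at 116 to 107 and 103 to 94 bases before it. In IFI44L the same 10 letters occur at 164 to 155 and again at 73 to 64 bases before the start. Of 27305 promoters in the table, 996 (3.65%) hold the pattern. Among interferon-list genes that were at least 2-fold higher in members, 27 of 34 matched an entry and 18 of those (66.7%) hold it, among them ISG20, DDX60, IFI44, IFIH1, SAMD9, MX1, PARP14, IFI6 and OAS3. Of the other interferon-list genes compared, 19 of 48 with an entry (39.6%) hold it. Genes outside these lists that were at least 2-fold higher held it in 5 of 145 promoters (3.45%), close to the share of all promoters, and 2-fold lower genes in 2 of 73 (2.74%). The lists were made of genes known as interferon-induced or as parts of interferon signalling, so their high share describes the lists. A match is not a measured binding site.

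The rule genes were sparse, and the rank set a limit within a range of values. Of the 8913 cells, 7756 had no UMI of the 4 rule genes and 847 had exactly 1. Members carried between 2 and 52 such UMIs, with a median of 4, and together held 1041 of 2273 (45.8%). Their share ran from 20.3 per 1000 UMIs through a median of 2.42 to 1.664 in the last member (3 of 1803 UMIs). The first cell outside had 1.663 per 1000 (2 of 1203 UMIs). Within 10% of this limit lay 22 members above it and 23 other cells below it. UMIs of all 4 genes were found in 19 members, of 3 genes in 38, of 2 genes in 60 and of a single gene in 33.

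Members and other cells had similar depth. The median UMI count was 1531 in members and 1524 in other cells, the median number of genes 918 and 912, the median peak count 3872 and 4034, and the median mitochondrial share 12.5% and 13.9%. Most immune markers were rare in other cells too: CD74 had 58 UMIs, CD14 17, PTPRC 4, CD3D and LYZ 1 each, and CD3E, TRAC and MS4A1 had 0. Of 18 immune markers, 16 were at 0 in members, including PTPRC, the pan-leukocyte phosphatase, the T-cell genes CD3D, CD3E and TRAC, the B-cell gene MS4A1, and LYZ and CD14 of myeloid cells. The exceptions were CD68, a lysosomal protein not limited to macrophages, with 6 UMIs in members against 116 in other cells and a ratio of 3.17 (1.14 to 7.12) that passed 2-fold, and ITGAX with 2 against 160. Peaks at the starts of the 18 immune genes held 55 counts in members, a ratio of 1.64 (1.10 to 2.42), and the part of this in the results was not tested. Endothelial markers had 5 UMIs in members, and fibroblast and smooth muscle markers had a ratio of 1.11 (0.878 to 1.39). Mesothelial markers such as mesothelin and keratins summed to 10399 counts per 1000000 UMIs (CPM) in members and 11723 in other cells, a ratio of 0.887 (95% interval 0.854 to 0.921), with 0 of 12 genes compared above a ratio of 1. Housekeeping genes had a ratio of 0.974 (0.942 to 1.01).

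Genes of the interferon lists, which hold induced genes and parts of the signalling routes, were higher in members as a group. None of those counted had a part in choosing the cells. They were read in the same library and cells as the rule genes, and their levels are given as a description. Over 8 lists with 139 genes, members had 16326 CPM and other cells 8784 CPM, a ratio of 1.86 (1.80 to 1.92). With at least 100 UMIs over all cells, 98 of the 139 genes could be compared one by one. Of these, 34 were at least 2-fold higher in members with an interval that excluded 1, none was as much lower, and 86 had a ratio above 1, with a median ratio of 1.73. Across all 10302 genes compared, 223 (2.16%) were that much higher and 95 (0.922%) that much lower, and the median ratio was 0.999. Outside the interferon lists 189 of 10204 genes (1.85%) were higher. Intervals are not adjusted for the number of genes. A gene is said to pass 2-fold only if its interval also excludes 1. With scaling by TMM the split of all genes was 144 higher and 169 lower, and 80 of the 98 interferon genes stayed above 1.

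**Figure D1:**
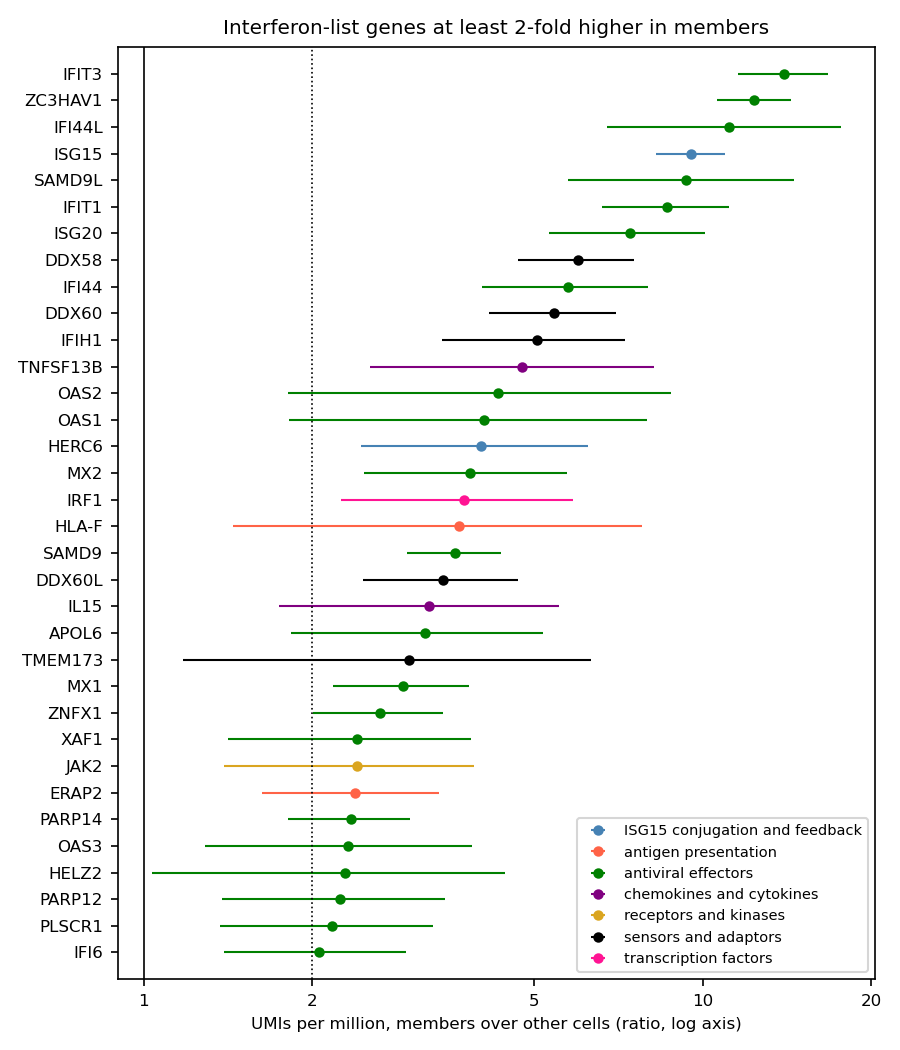
Ratio of CPM in the 150 members over the 8763 other cells for each of the 34 interferon-list genes at least 2-fold higher (log axis, points coloured by list, bars are exact 95% counting intervals, the dotted line marks 2-fold). IFIT3 is at the top at 14.0-fold and IFI6 at the bottom at 2.06-fold, and antiviral effectors make up most of the genes.

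Ligands were almost unseen. Of 11 interferon genes, only IFNB1, encoding interferon beta, gave a UMI in members, 1 UMI against 1 in other cells. IFNL1 and IFNE gave 0 UMIs in members and 1 and 11 in other cells, and the other ligand genes gave none. A count of 0 among the members' UMIs allows up to 3 UMIs, so low interferon transcription was not detectable at this depth.

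Sensors of RNA were among the clearest genes. DDX58, which encodes the RNA helicase RIG-I, stood at 293 CPM in members and 49.1 CPM in other cells, a 5.97-fold difference (4.67 to 7.54), with a UMI in 46 of 150 members. IFIH1, encoding MDA5, was 5.06-fold higher (3.41 to 7.26), and the related helicases DDX60 and DDX60L were 5.43-fold (4.15 to 6.99) and 3.43-fold (2.46 to 4.67) higher. TMEM173, encoding the adaptor STING, was 2.98-fold higher on 7 UMIs in members (1.18 to 6.30). Components further along these routes did not stand out in the same way. MAVS had a ratio of 1.76 (0.930 to 3.04), TBK1 1.06 (0.711 to 1.53) and IRF3 0.831 (0.303 to 1.82). Thus 5 of the 10 sensor and adaptor genes compared passed 2-fold with an interval excluding 1. DHX58, at 2.11 (0.677 to 5.05), did not. The list as a whole had a ratio of 2.99 (2.64 to 3.37).

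Receptors, kinases and transcription factors differed less. The receptor and kinase list had a ratio of 1.36 (1.14 to 1.62) with 1 of 8 genes past 2-fold, the kinase JAK2 at 2.41 (1.39 to 3.90). JAK2 rested on few cells: without the 10 members highest in interferon-list share its ratio was 0.917, and it was 0.802 when members were chosen again among cells with at most 10% mitochondrial UMIs. The receptor subunits IFNAR1 and IFNAR2 were at 1.68 (1.08 to 2.50) and 1.14 (0.565 to 2.05). Among transcription factors IRF1 was 3.74-fold higher (2.25 to 5.87), at 75.2 CPM against 20.1 CPM. Others were below that fold or uncertain: IRF7 at 1.93 (0.769 to 4.05), IRF9 at 1.48 (0.635 to 2.96) and STAT2 at 1.10 (0.635 to 1.76). With TMM scaling the ratio of STAT2 was 0.990 and that of TBK1 was 0.963.

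Antiviral effectors made up the largest list, with 21 of 47 compared genes past 2-fold with an interval excluding 1. IFITM1, at 3.04 (0.965 to 7.32), was not among them. Above 1 were 44 of 47 genes, and the summed ratio was 2.07 (1.98 to 2.16). IFIT3, whose protein binds viral RNA together with its relatives, had 541 CPM in members and 38.8 CPM in other cells, a ratio of 14.0 (11.6 to 16.7). Its UMIs came from 59 members, and no member held more than 14 of the 144. ZC3HAV1, the zinc-finger antiviral protein that recognises CpG-rich RNA, had 774 CPM against 62.6 CPM, a ratio of 12.4 (10.6 to 14.4), with UMIs in 60 members. IFI44L was 11.2-fold higher (6.74 to 17.7), SAMD9L, a restriction factor for poxviruses, 9.34-fold (5.75 to 14.5), and IFIT1, which binds RNA lacking cap methylation, 8.64-fold (6.61 to 11.1). ISG20, an exonuclease, was 7.40-fold higher (5.31 to 10.1).

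A second tier of effectors lay between 2-fold and 6-fold. IFI44 was at 5.75 and SAMD9 at 3.61. The oligoadenylate synthetases, which activate RNase L, were higher in all 3 members of the family compared: OAS2 at 4.30 (1.81 to 8.77), OAS1 at 4.06 (1.82 to 7.94) and OAS3 at 2.32 (1.28 to 3.87). OAS1 was at 0.582 (0.0140 to 3.66) when members were chosen again among cells with at most 10% mitochondrial UMIs. The dynamin-like GTPases MX2 and MX1 were at 3.84 (2.48 to 5.71) and 2.91 (2.18 to 3.82). APOL6, ZNFX1, XAF1, PARP14, HELZ2, PARP12, PLSCR1 and IFI6 lay between 2.06 and 3.19. With TMM scaling IFI6 at 1.86 and PLSCR1 at 1.97 were below 2-fold, and the interval of HELZ2 (0.936 to 3.998) included 1. Among cells with at most 10% mitochondrial UMIs, from which 150 members were chosen again, PARP12 had a ratio of 0.437 and HELZ2 one of 0.976. In the chosen members, IFI6 had a ratio of 1.58 and PARP12 one of 1.73 without the 10 members highest in interferon-list share. Without those 10 cells the interval of OAS2 and that of XAF1 also included 1.

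Not every effector passed 2-fold. IFITM3, which blocks viral fusion, was the most counted of the effectors named here, with 305 UMIs in members, and had a ratio of 1.08 (0.965 to 1.21), or 0.980 with TMM scaling. IFI27 was at 1.74 (1.44 to 2.09), EIF2AK2, the double-stranded RNA kinase PKR, at 1.52 (1.13 to 1.98) and ADAR at 1.12 (0.669 to 1.75).

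ISG15, the ubiquitin-like modifier, was the most widely seen of the 20 leading genes: 79 of 150 members had a UMI, and its level was 868 CPM against 91.1 CPM, a ratio of 9.53 (8.26 to 11.0). HERC6, a relative of the ISG15 ligase HERC5, was 4.01-fold higher (2.45 to 6.24). The E1 enzyme UBA7 at 0.553 (0.0139 to 3.14) and the E2 enzyme UBE2L6 at 1.22 (0.742 to 1.89) were not. SOCS3, a feedback inhibitor, was at 0.751 (0.154 to 2.22).

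Several list genes were too rare for the comparison and are given as counts, chosen after their values were seen. HERC5, the main human ISG15 ligase, had 12 UMIs in 9 of 150 members and 11 UMIs in 11 of 8763 other cells, a ratio of 66.9 with an interval from 27.0 to 167. GBP4, a guanylate-binding protein, had 11 UMIs in members against 20. CMPK2, a nucleotide kinase, had 13 against 61. TNFSF10, encoding the death ligand TRAIL, had 3 against 2 and CXCL11 had 2, both in 1 cell, against 1. The chemokine CXCL10 gave 0 UMIs in members and 4 in other cells.

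Antigen presentation differed modestly. The list had a ratio of 1.38 (1.31 to 1.46), with 13 of 16 genes above 1 and 2 past 2-fold, HLA-F at 3.67 (1.44 to 7.80, 7 UMIs in members) and the peptidase ERAP2 at 2.38 (1.63 to 3.37). The class I genes HLA-B and HLA-C were at 1.72 (1.44 to 2.04) and 1.64 (1.36 to 1.95), and B2M, their light chain, at 1.37 (1.26 to 1.50). HLA genes are near copies of each other, so reads may be split between them. Among cytokines, TNFSF13B (the B-cell factor BAFF) was 4.74-fold higher (2.54 to 8.17) and IL15 3.24-fold higher (1.75 to 5.53), while CCL2 was at 1.04 (0.569 to 1.76).

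Genes outside the lists were also among those that stood out most. Of the 20 genes with the highest lower bounds, 12 were in the interferon lists. PMAIP1, which encodes the pro-apoptotic BCL2-family protein NOXA, was at 120 CPM against 9.62 CPM, a ratio of 12.5 (8.27 to 18.4), with UMIs in 22 members. PLAAT4, a phospholipase and acyltransferase, was 10.0-fold higher (5.84 to 16.4). SLC2A13, a myo-inositol transporter, was 7.03-fold higher (4.72 to 10.2) and NEDD9, an adhesion scaffold, 6.52-fold (3.03 to 12.5). TENT5A, a poly(A) polymerase, was 6.08-fold higher (3.78 to 9.35), on 23 UMIs in 12 members, 6 of them in 1 cell. IL7R, a cytokine receptor, was 5.94-fold higher (3.24 to 10.1), on 15 UMIs in 13 members. TENT5A, IL7R and NEDD9 gave 0 UMIs in members with 2 rule UMIs, as did IFI44L and ZC3HAV1 of the interferon lists. In that class a count of 0 allows up to 102 CPM. NEDD9 rested on 10 UMIs, gave none in the 160 other cells with 2 or more rule UMIs, and had a ratio of 0.615 (0.0148 to 3.89) when members were chosen again among cells with at most 10% mitochondrial UMIs. PLAUR, the urokinase receptor, and FGF2, a fibroblast growth factor, were more widely seen, in 42 and 64 members, at 3.86-fold (2.91 to 5.02) and 3.40-fold (2.84 to 4.06).

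**Figure D2:**
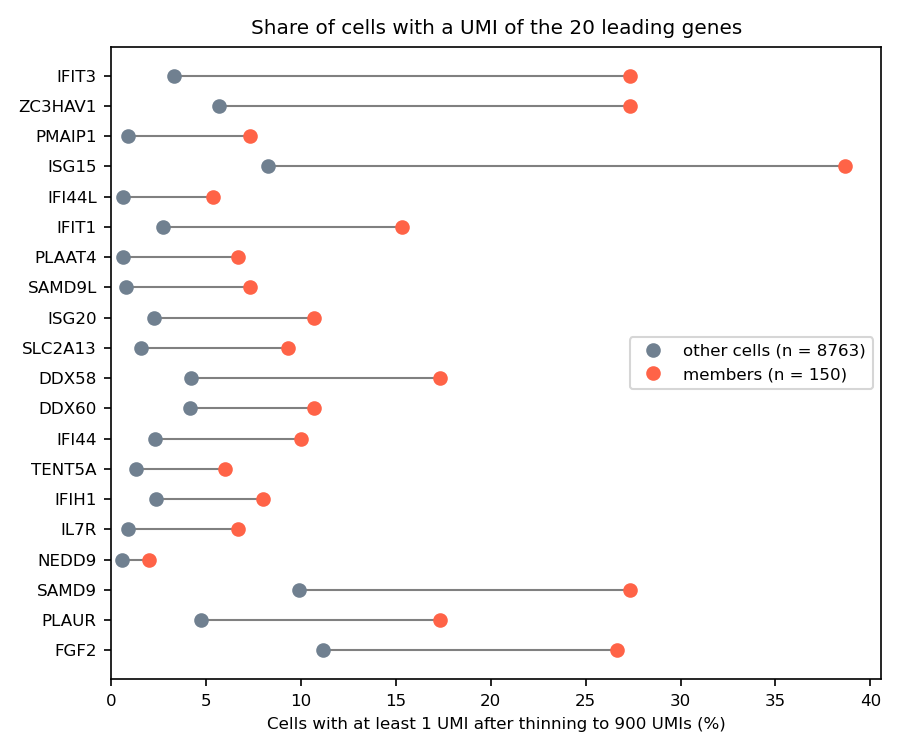
Percent of cells with at least 1 UMI of each of the 20 leading genes after every cell was thinned to 900 UMIs, in members (n = 150) and other cells (n = 8763), ordered by the lower bound of the ratio. ISG15 was found in 38.7% of members and 8.24% of other cells, and NEDD9 in 2.00% and 0.536%.

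For no leading gene did most of the thinned members hold a UMI. At 900 UMIs per cell ISG15 was found in 38.7% of members and 8.24% of other cells, IFIT3 in 27.3% and 3.31%, ZC3HAV1 in 27.3% and 5.65%, and FGF2 in 26.7% and 11.1%. Unthinned, the ISG15 shares were 52.7% and 14.2%. RNA in barcodes with fewer than 100 UMIs, taken as free RNA, held 45.8 CPM of IFIT3 and 135 CPM of ISG15. These values were above the 38.8 CPM and 91.1 CPM of other cells. Other cells with 2 or more rule UMIs had 194 CPM of IFIT3 and 321 CPM of ISG15, above the free RNA. The part of free RNA in the shares of other cells was not tested. The members' levels of both genes were above those of the free RNA. At the level of the lists without antigen presentation, 95.3% of thinned members (143 of 150, exact interval 90.6% to 98.1%) and 81.8% of other cells (81.0% to 82.6%) had at least 3 UMIs. The free RNA held 5186 CPM of these lists, against 5123 CPM in other cells and 11260 CPM in members.

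Members differed widely among themselves. The interferon lists without antigen presentation took 1.83 per 1000 UMIs in the lowest member, 8.50 in the median and 44.4 in the highest, against 0, 4.88 and 25.4 in other cells. Above the median of other cells lay 124 of 150 members, above their 90th percentile 80 (53.3%), and above every other cell 6. At or below the median of other cells lay 26 members. Conversely 648 other cells (7.39%) exceeded the median member. The 10 members highest in this share held 19.4% of the members' interferon-list UMIs and 7.27% of all their UMIs.

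The level rose with the number of rule-gene UMIs within other cells and within members, but not from other cells to members. Other cells with 0, 1, and 2 or more such UMIs had 4977, 5793 and 7494 CPM of these lists. Members with 2 had 6085 CPM (exact interval 5309 to 6941), those with 3 or 4 had 7677 CPM (7019 to 8378) and those with 5 or more had 13802 CPM (13244 to 14376). The interval of members with 2 overlapped that of other cells with 1 (5679 to 5908). It lay below that of other cells with 2 or more (7228 to 7768), which members with 3 or 4 overlapped. Only the 72 members with 5 or more rule UMIs were apart from, and above, each other class in summed level. Counted by how many of the 4 rule genes a member held, the levels were 6394 CPM with 1 gene, 8939 CPM with 2, 13837 CPM with 3 and 16855 CPM with all 4. Depth moved with these classes: the median UMI count was 1086 in members with 2 rule UMIs, 1391 with 3 or 4 and 2120 with 5 or more. Its part in the gradient was not tested.

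**Figure D3:**
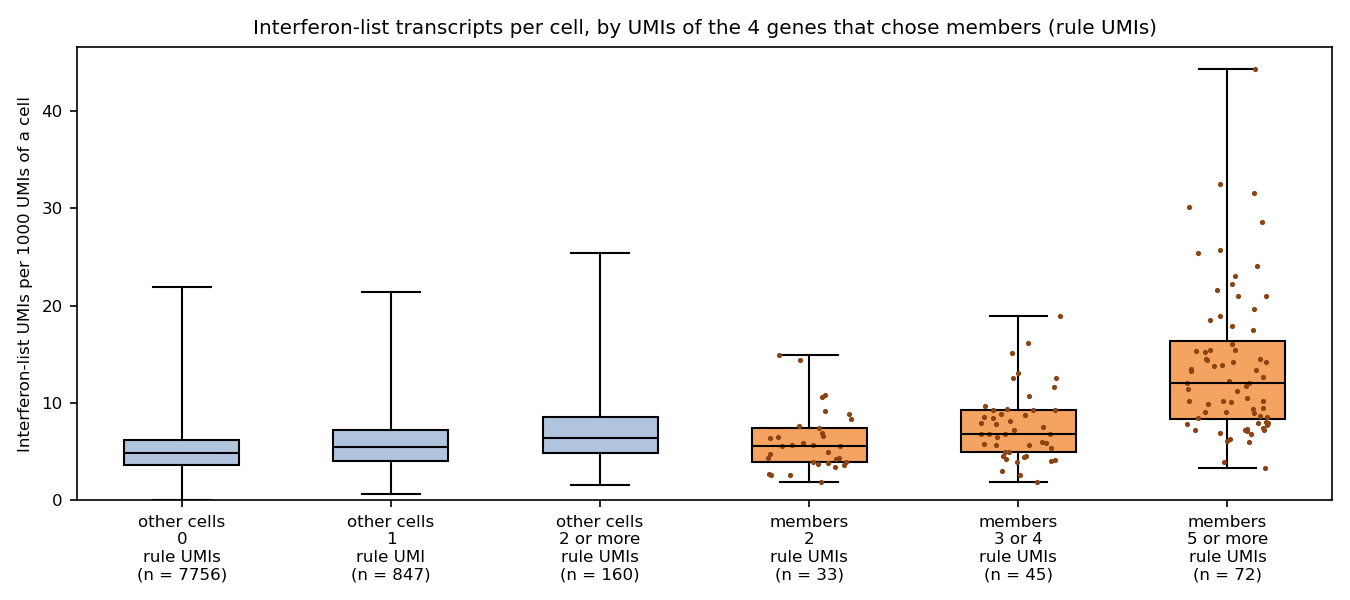
UMIs of the interferon lists without antigen presentation per 1000 UMIs of a cell, by the number of UMIs of the 4 rule genes (boxes show quartiles and median, whiskers the lowest and highest cell, points single members). The 72 members with 5 or more rule UMIs have a median of 12.0, against 4.81 in cells with none, and members with 2 rule UMIs, median 5.56, lie within the range of other cells.

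Single genes did not all follow this order. ISG15 stood at 79.9 CPM in cells without a rule UMI, 321 CPM in other cells with at least 2, and 1193 CPM (1033 to 1372) in members with 5 or more. ZC3HAV1 was at 222 CPM in other cells with at least 2 rule UMIs but gave 0 UMIs in the 33 members with 2, and stood at 308 CPM in those with 3 or 4 and 1127 CPM (971 to 1301) with 5 or more. PMAIP1 was at 8.50 CPM in cells without a rule UMI and 164 CPM (108 to 238) in members with 5 or more. FGF2 was at 332 CPM (172 to 580) in members with 2, 324 CPM with 3 or 4 and 600 CPM (488 to 730) with 5 or more, against 139 CPM in cells without any. IFI44 was at 111, 15.4 and 206 CPM over the member classes, the middle value from 1 UMI. The mesothelial list went the other way, from 12639 CPM (11513 to 13845) in members with 2 rule UMIs to 9736 CPM (9268 to 10222) with 5 or more.

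Other programmes showed small differences. Of the 16 compared genes of NF-kB and cytokines none passed 2-fold and the list ratio was 1.31 (1.21 to 1.42), with CXCL8 at 1.83 (1.02 to 3.05), ICAM1 at 1.21 and NFKBIA at 1.28. The lowest ratio in that list was TNFAIP3 at 0.210 on 1 UMI (0.00530 to 1.18). AP-1 and immediate early genes had a ratio of 1.21 (1.02 to 1.43) with ATF3, a stress-induced repressor, 2.93-fold higher (1.58 to 5.00). The BCL2-family list had a ratio of 1.51 (1.21 to 1.86) with 1 of 7 genes past 2-fold, PMAIP1. p53 targets were at 1.21 (1.09 to 1.35) with none of 15 past 2-fold. Heat shock genes were at 0.975 (0.906 to 1.05), and ATF4 and unfolded protein response genes at 1.08 (0.9501 to 1.23), or 0.979 with TMM scaling. With that scaling the NF-kB list was at 1.19, AP-1 at 1.095, BCL2 family at 1.37, p53 targets at 1.097 and heat shock at 0.881.

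Cycle and drug-target programmes were close to other cells. The G2/M list was at 1.14 (1.06 to 1.23), or 1.035 with TMM scaling. The S-phase list was at 1.07 (0.938 to 1.22), or 0.971 with TMM scaling. YAP/TEAD targets, the genes driven by the target of the inhibitor, were at 0.935 (0.881 to 0.991) with 0 of 19 past 2-fold. With TMM scaling their ratio was 0.845. MAPK output genes were at 1.08 (0.874 to 1.33), or 0.979 with TMM scaling. Marker lists of 3 subsets of the pool had summed ratios below 1: those led by CYP24A1 at 0.719 (0.519 to 0.970), by ADGRL3 at 0.756 (0.608 to 0.930) and by LCN2 at 0.795 (0.670 to 0.937). In the list led by ADGRL3, 3 of 5 genes had ratios above 1 and the median ratio was 1.03, and ADGRL3 itself was at 0.567 (0.271 to 1.05). The list led by HMGA2 was at 0.999 (0.840 to 1.18). Since subsets were not tied to line or treatment, the condition that members came from could not be read.

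**Figure D4:**
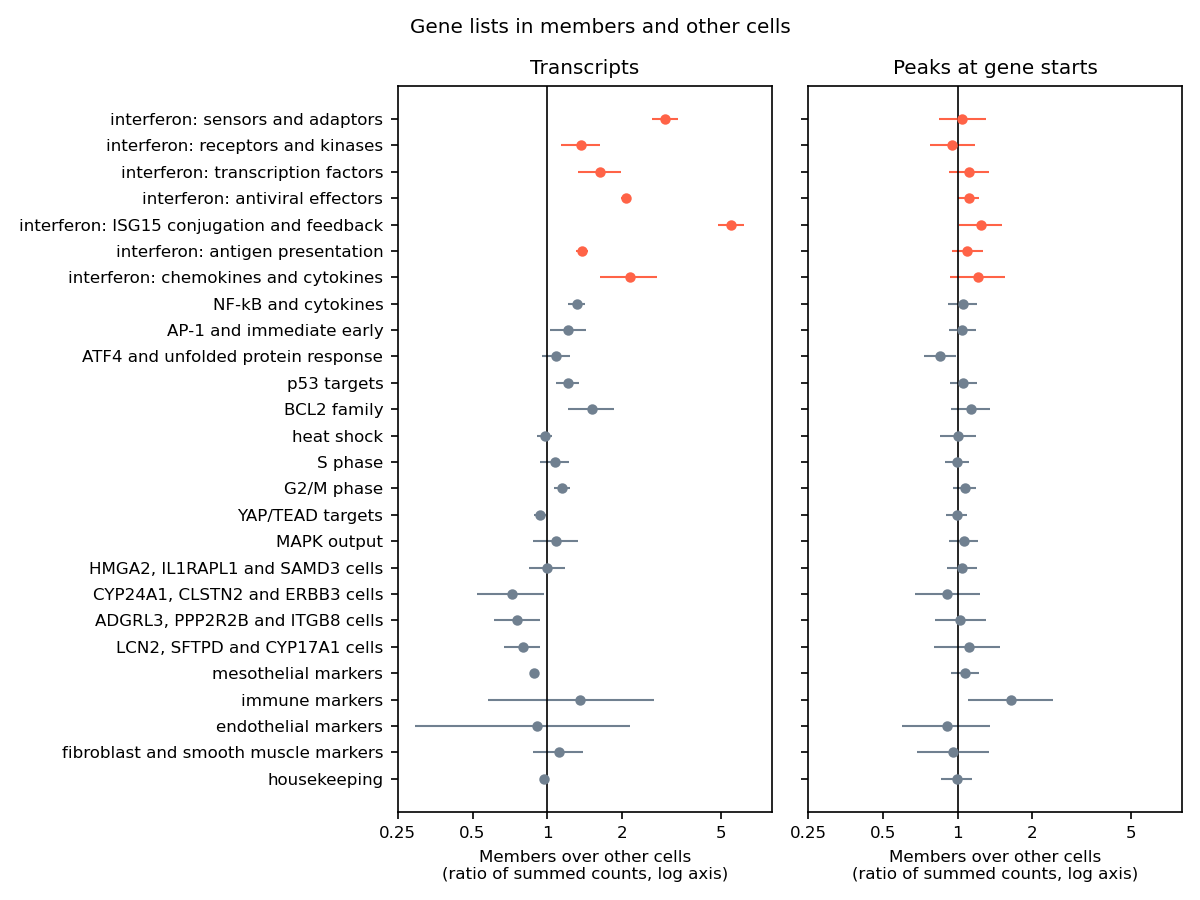
Ratio of members over other cells for the gene lists, from summed UMIs (left) and from summed counts of peaks within 1000 bases of the gene starts (right), on log axes with exact 95% counting intervals; interferon lists are in red, and the ligand list, with 1 UMI in members, is left out. Transcripts of the interferon lists lie between 1.36 and 5.51, and their gene-start peaks between 0.951 and 1.24.

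The lower genes mostly rested on few UMIs in members, and none of SLC9A3R1, SFTPD, NTNG1, CNST, GNA12, DNAAF5, CDH6, ARHGEF26-AS1, LIPE-AS1 and CLSTN2 stayed past 2-fold with an interval excluding 1 when members were chosen again among cells with at most 10% mitochondrial UMIs. SLC9A3R1, a scaffold of membrane transporters, had 26.3 CPM in members and 97.7 CPM in other cells, a ratio of 0.269 (0.108 to 0.556). Lower levels were also found for the surfactant gene SFTPD at 0.304 (0.111 to 0.664) and the axon-guidance gene NTNG1 at 0.473 (0.314 to 0.685). CNST gave 0 UMIs in members and 408 in other cells, a ratio of 0 (0 to 0.557). It was at least 2.22-fold lower taking 3 UMIs as the limit of a count of 0. By the upper bound of its interval it was at least 1.80-fold lower. GNA12, DNAAF5, CDH6, ARHGEF26-AS1 and LIPE-AS1 had 1 to 3 UMIs in members and ratios between 0.112 and 0.216. ARHGEF26-AS1 and LIPE-AS1 are antisense RNAs, and their counts may include reads of the genes they overlap. The synaptic gene CLSTN2 was at 0.343 (0.0931 to 0.881).

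Accessibility, which played no part in choosing the cells, differed far less than transcripts. Peaks within 1000 bases of the starts of sensors, transcription factors, effectors, ISG15 conjugation genes and chemokines held 1583 counts in members, or 2064 CPM on the peak scale, against 1837 CPM in other cells, a ratio of 1.12 (1.05 to 1.21). When members were chosen again in deeper cells or in those with at most 10% mitochondrial UMIs, the interval included 1. The sum over all gene starts was at 1.01 (1.00 to 1.01). At the starts of the 34 higher interferon genes the ratio was 1.11 (0.980 to 1.25), and at those of the 189 other higher genes 1.00 (0.962 to 1.04). Only 6 of the 59 peaks at the starts of the 34 genes passed the minimum of 1000 counts, so differences at single gene starts were mostly not detectable at this depth.

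The peak at the start of ZC3HAV1 (chr7:139109060-139109955) had 38 counts from 17 members, a ratio of 1.97 (1.18 to 3.10), beside a 12.4-fold difference in its transcripts. The intervals of single peaks treat counts as pairs, since most arise as both ends of a fragment. A peak at the CMPK2 start (chr2:6865258-6866146) had 23 counts in members and a ratio of 2.34 (1.25 to 4.33), and the one beside it (chr2:6866291-6866861) 12 counts and 4.12 (1.47 to 9.27). HLA-F (chr6:29722941-29723788) was at 2.21 (1.09 to 4.01). The peak at the ISG15 start that holds the printed motif matches (chr1:1012975-1013891) was at 1.52 (0.604 to 3.16). Other peaks counted for ISG15 were at 2.42 (1.09 to 4.66, chr1:1001630-1002431) and 1.04 (0.446 to 2.07, chr1:1000024-1000512), and chr1:1004825-1005756 had 0 counts in members. Those at the starts of IFIT3 (chr10:89327742-89328606) and IFIT1 (chr10:89392112-89392959) were at 1.25 (0.402 to 2.95) and 0.847 (0.229 to 2.19), both with 10 counts or fewer in members. MX1 (chr21:41420040-41420947) was at 0.820 (0.299 to 1.80), IFIH1 (chr2:162318331-162319187) at 0.442 (0.0907 to 1.30) and IRF1 (chr5:132490440-132491310) at 0.601 (0.313 to 1.13). These peaks were picked after their values were seen.

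Across all 9516 peaks with at least 1000 counts, 25 (0.263%) were at least 2-fold higher in members and 134 (1.41%) at least 2-fold lower. Among both groups 0 had an interferon-list gene as nearest start. Only 22 of the 173 peaks at the gene starts of the 5 interferon lists summed above passed this minimum, so few could be called. The highest by lower bound was at the start of MED31, a Mediator subunit (chr17:6651223-6652125, ratio 2.33, 1.48 to 3.65). Next by lower bound were peaks at the starts of TRIM35, at 2.08 (1.42 to 2.94), and IDH2, mitochondrial isocitrate dehydrogenase (chr15:90102063-90102955), at 2.09 (1.41 to 3.07). JADE1 (chr4:128809348-128810246) was at 2.27 (1.37 to 3.54), and a peak 27991 bases from the JUN start (chr1:58755131-58756055) at 2.22 (1.36 to 3.59). Others of the leading 10 lay nearest to EVI5, PRKAG2, DGKH, AL158207.2 and WDR73, with ratios from 2.06 to 2.13. The numbers of higher and lower peaks changed strongly with the choice of members and with the minimum count.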

How the data were processed

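One pooled sample of NCI-H226 and NCI-H226_CL3 cells was analysed from its expression and accessibility libraries; the hashtag library was not used, since the matrix holds 0 hashtag features. Per the file headers and values, the deposited matrix holds raw counts made by the authors, UMIs per gene (36601) and counts per peak (215590) for 651860 barcodes. The submitters' processing notes name Cell Ranger ARC 2.0.0, Cell Ranger 2.0.0, ArchR 1.0.3, MACS2 and GRCh38.p10. Cells were barcodes holding 1000 or more UMIs, 1000 or more peak counts and no more than 20% mitochondrial UMIs: of 11130 barcodes past both minimums, 2217 were over the mitochondrial limit. All barcodes carry 1 suffix, and doublets were not removed.

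Counts were summed over members and other cells and divided by the total outside the 4 rule genes (Python 3.11.15, NumPy 2.4.6, SciPy 1.17.1, pandas 2.3.3). Intervals are exact conditional binomial 95% intervals. They were tested on simulated sums with counting error only, so that test does not cover spread between cells. UMIs and peak counts of 1 pool are no replicates. Genes needed 100 UMIs and peaks 1000 counts over all cells. Peaks nearest to, or within 1000 bases of, a rule-gene start (20) were left out. Named were the 20 higher genes with the highest lower bounds, the 10 lower genes with the lowest upper bounds, every higher interferon-list gene, the most different member of other lists, and 10 peaks; any other gene was chosen after its values were seen. Scaling alternatives used edgeR 4.0.16 (TMM) and DESeq2-type size factors in R 4.3.3. Members and the 27 gene lists were chosen with earlier results of these data known. A few genes covered by these rules are not reported here.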

Additional observations from a re-analysis of the deposited data

How the results depend on the processing

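The interferon-list ratio stayed above 1, with its interval, under every alternative run, but sizes and counts moved. The interferon-list ratio was 2.19 with 75 members, 1.60 with 300, 1.67 without the 10 members highest in interferon-list share, 1.68 with TMM and 1.70 with median-of-ratios scaling. These scalings put the median ratio of all genes at 0.903 and 0.912. Stricter cell filters left 2307 cells (at least 2000 UMIs and 2000 peak counts) and 1592 cells (at most 10% mitochondrial UMIs). Choosing 150 again then reached down to cells with 1 rule UMI and kept 36 and 42 members. The list ratio was 1.49 and 1.45 there, and the gene-start ratio 1.05 (0.987 to 1.12) and 1.02 (0.935 to 1.11), with intervals that include 1. Of the 223 higher genes, 35 and 13 were shared there. Of 69 named genes, 21 and 26 kept their side of 1 but no longer passed 2-fold with an interval excluding 1. Those that changed side are given below.

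Genes at least 2-fold higher numbered 301 with 75 members, 133 with 300, 59 and 36 under the stricter filters, 351 with a minimum of 10 UMIs, 56 with 500 and 144 with TMM. Lower genes numbered 48 under the mitochondrial limit, 55 with a minimum of 500 UMIs, 169 with TMM and 160 with median of ratios. Higher peaks numbered 148 with 75 members, 1 with 300, 0 under both stricter filters, 11 counted as present or absent per cell and 598 with a minimum of 300 counts. Lower peaks numbered 71 with 300 members, 1 and 0 under the stricter filters and 304 with 300 counts. The share of members with interferon UMIs was 100% at 1 UMI, 79.3% at 5 and 98.7% unthinned. In other cells these shares were 98.8%, 47.4% and 96.4%. Chosen after seeing the data, members with at least 5 rule UMIs gave 308 higher genes, 122 higher and 87 lower peaks and a list ratio of 2.22, and members with at least 2 rule genes gave 53 higher peaks and 1.98.

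Ratios that changed side of 1 were those of TBP (1.06) with 75 members, and of HSPA1B (1.13) and KDR (1.28) with 300. At 2000 UMIs they were MAFF (1.34), VLDLR (1.03), HSPA1B (1.38), UHRF1 (1.10), FJX1 (1.14), KDR (1.18) and TBP (1.65). Under the mitochondrial limit they were NEDD9 (0.615), PARP12 (0.437), JAK2 (0.802), OAS1 (0.582), HELZ2 (0.976), TNFAIP3 (1.20), VLDLR (1.50) and FJX1 (1.43), and without the 10 members JAK2 (0.917). The cause was not tested. No paired analysis was possible because there is 1 pooled sample.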
